A study of Homo sapiens with 50 samples.

Results

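A549 cells, an established human lung adenocarcinoma line, were treated for 24 h with compound 16 in medium without serine and compared with cells given the solvent DMSO in the same medium for the same time. The comparison holds 6 of the 50 arrays of the series, chosen by their titles: 3 arrays of cells that received 1 uM compound 16 and 3 of cells that received DMSO. The cells had been grown in RPMI and were moved to a basal medium (BME) with non-essential amino acids and no serine 24 h before the compound or DMSO was added. They stayed in it until harvest. The other groups used below were 3 arrays of compound 16 and 3 of DMSO after 24 h in the same medium with serine, and 3 and 3 arrays after 6 h without serine. The series asks what activation of pyruvate kinase M (PKM) does to the need of cancer cells for serine, and compound 16 is known here only by its number, from the labels. All values come from 1 cell line and 1 dose.

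Pyruvate kinase M carries out the last step of glycolysis. Serine is built from an intermediate that lies above this step, by PHGDH, PSAT1 and PSPH in turn. Cells short of an amino acid phosphorylate the initiation factor eIF2, which lowers protein synthesis in general and raises translation of the transcription factor ATF4. ATF4, with partners of the C/EBP family, switches on genes of amino acid synthesis, amino acid uptake and tRNA charging, and this programme is called the integrated stress response. Genes of cholesterol and fatty acid synthesis are driven by the SREBP factors, which are released when membranes run short of sterol. Genes of mitosis peak late in the cell cycle and many are held off in resting cells by the DREAM complex, which acts through a promoter element called CHR (cell cycle genes homology region).

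The promoters of the genes that moved are shown first, since short elements there have been tied to the programmes above. Promoter sequences were taken from RefSeq (build GRCh38.p14), and the 250 bases before each start were searched on both strands for TGATGNAA, a core of the composite C/EBP-ATF element, and for TTTGAA, the core of the CHR. TGATGNAA was in 323 of the 14492 tested genes that have a promoter in the table (2.23%). It was in 3 of the 21 of the 25 largest rises that have one (14.3%), ASNS, BCAT1 and AARS1, and in 2 of 16 cytosolic aminoacyl-tRNA synthetases (12.5%), AARS1 and IARS1. It was also in 1 of 22 of the largest falls (4.55%), in 1 of 14 mitochondrial synthetases (7.14%), a list of which no member passed, and in 0 of 2 genes of serine synthesis, so most genes that rose lacked it. Stretches around these 4 matches are shown on the strand of the gene, with the match in capitals, because each of the 4 genes rose. The match of AARS1 and that of IARS1 lie on the opposite strand and so read TTGCATCA.
ASNS, chr7:97872444-97872501, minus strand: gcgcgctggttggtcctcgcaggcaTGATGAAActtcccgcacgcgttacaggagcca
BCAT1, chr12:24949117-24949174, minus strand: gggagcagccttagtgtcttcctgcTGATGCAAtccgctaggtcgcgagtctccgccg
AARS1, chr16:70289661-70289718, minus strand: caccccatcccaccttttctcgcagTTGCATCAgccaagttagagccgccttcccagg
IARS1, chr9:92293698-92293735, minus strand: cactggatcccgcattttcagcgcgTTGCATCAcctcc

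TTTGAA was in 1562 of the 14492 promoters (10.8%), in 20 of the 36 mitosis genes that have one (55.6%) and in 1 of 30 DNA replication genes (3.33%). CCAAT, the letters read by the factor NF-Y, was in 34.6% of all promoters, 28 of 36 mitosis genes (77.8%), 17 of 30 replication genes (56.7%) and 12 of 16 cholesterol synthesis genes (75%). It was as well in 9 of 14 mitochondrial synthetases (64.3%), so it was not confined to lists that fell. TCACNCCAC, the core of a sterol regulatory element, was in 0.883% of all promoters and in 0 of the 16 of cholesterol synthesis. A match is a description of letters and not of a bound factor. The 5 stretches below come from mitosis genes that fell and carry TTTGAA, or TTCAAA on the opposite strand, in capitals. In ANLN and HMMR a pair of such matches lie end to end.
ANLN, chr7:36389811-36389861, plus strand: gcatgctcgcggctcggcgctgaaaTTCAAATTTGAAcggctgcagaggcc
HMMR, chr5:163460579-163460631, plus strand: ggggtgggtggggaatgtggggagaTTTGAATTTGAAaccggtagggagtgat
BUB1B, chr15:40161021-40161068, plus strand: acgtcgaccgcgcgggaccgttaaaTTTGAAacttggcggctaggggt
CCNB2, chr15:59105092-59105145, plus strand: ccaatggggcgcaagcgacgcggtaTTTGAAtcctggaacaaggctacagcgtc
KIF11, chr10:92593077-92593129, plus strand: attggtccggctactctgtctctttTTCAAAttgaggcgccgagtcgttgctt

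Expression was read on Affymetrix HG-U219 arrays as RMA signals on the log2 scale, where a difference of 1 is a 2-fold change. Each difference below is compound 16 minus DMSO with its standard error (SE) from 1 limma fit of all 50 arrays, with 3 arrays in each group compared here, and "passed" means a Benjamini-Hochberg adjusted p under 0.05 over 18239 genes. The 6 arrays had median signals between 5.41 and 5.47. The 3′ minus 5′ signal of the ACTB control probe sets lay between 1.14 and 1.33 in compound 16 and between 1.15 and 1.19 in DMSO. The summed signal of 12 epithelial and A549 genes was 155.8 to 155.9 in compound 16 and 156.2 to 156.3 in DMSO. KRT7 rose in this list, by 0.36 ± 0.05, while KRT19 fell by 0.30 and KRT8 by 0.19. That of 15 markers of leukocytes, fibroblasts, endothelium and alveolar cells was 65.1 to 68.2 in compound 16 and 68.4 to 69.8 in DMSO. Group means of these 15 lay between 3.90 and 5.25 in compound 16 and between 3.94 and 6.02 in DMSO, where the 4560 dimmest genes had means of up to 4.44 over all arrays. CD14 alone among the 15 passed (-0.78 ± 0.22, adjusted p = 0.018), and the part of these shifts in the results was not tested.

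After 24 h without serine, 542 genes (2.97% of those tested) were higher and 745 (4.08%) lower in compound 16 than in DMSO, 7.06% in all. Of these, 34 (0.186% of the genes tested) were higher and 16 (0.0877%) lower by at least 2-fold. The middle size of a called rise was 0.36 log2 units and that of a called fall -0.42, so most calls were small. The 3 and 3 arrays did not overlap for 532 of the called rises and 717 of the called falls, where 11.2% and 11.6% of all genes tested were fully separated upward and downward. Calls were most frequent among bright genes: 0.68% of the 4560 dimmest genes and 15.3% of the 4560 brightest passed. With arrays centred on their medians, 678 of 1276 called genes were higher, so the split between directions depends on this choice. A gene was read from its brightest probe set. Of 194 called genes of the lists and of the largest changes that have several, 75 passed with every probe set, 67 with at most 1, and 36 had a probe set of the opposite sign. A fit of the 6 arrays alone, which leaves few degrees of freedom, called 439 genes.

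**Figure D1:**
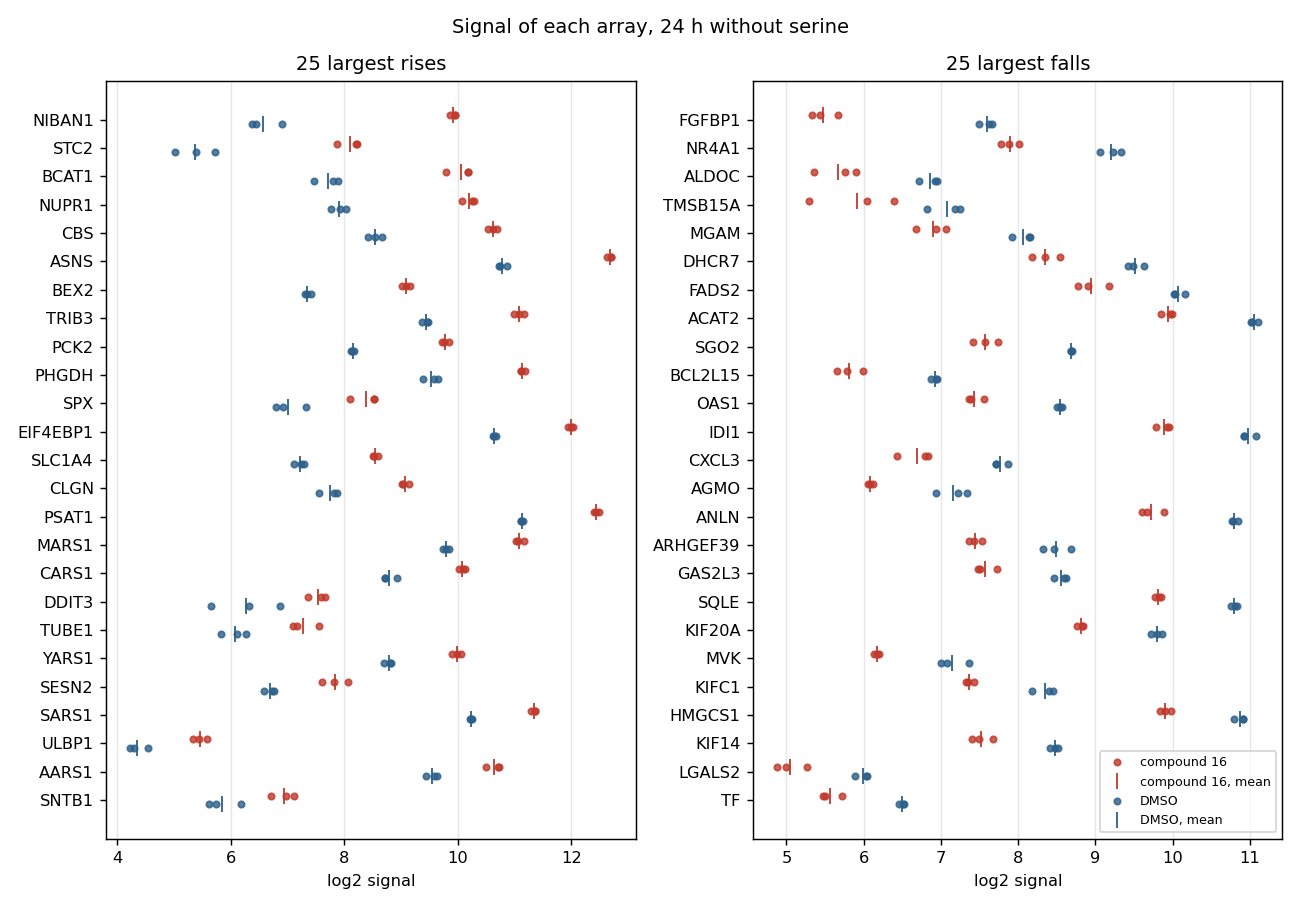
Log2 signal of each array without serine at 24 h for the 25 genes with the largest rise (left) and the 25 with the largest fall (right). Dots are arrays and bars are group means, compound 16 in red and DMSO in blue; the groups do not overlap for any of these 50 genes, by the rule that chose them.

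The 4 genes that mark the comparison separated the groups. NIBAN1 (chromosome 1), a regulator of translation and survival under stress, had log2 signals of 9.95, 9.86 and 9.95 in compound 16, against 6.90, 6.38 and 6.44 in DMSO. This is 10.2-fold higher (3.35 ± 0.16, adjusted p = 3.33e-18). STC2 (chromosome 5), a secreted glycoprotein, had 8.20, 8.23 and 7.87 in compound 16 and 5.02, 5.38 and 5.72 in DMSO (2.73 ± 0.17, adjusted p = 1.93e-15). For both genes every compound 16 array lay more than 2 log2 units above every DMSO array, although the DMSO arrays of STC2 spread widely. The other probe sets of these genes gave smaller rises, down to 0.68 for NIBAN1 and 1.49 for STC2, and each of their 3 probe sets passed. PHGDH (chromosome 1) had 11.12, 11.12 and 11.18 in compound 16 and 9.58, 9.66 and 9.38 in DMSO (1.60 ± 0.08, adjusted p = 9.06e-18). KIF20A (chromosome 5), a kinesin of cytokinesis, had 8.84, 8.77 and 8.83 in compound 16 and 9.72, 9.86 and 9.79 in DMSO, 1.97-fold lower (-0.98 ± 0.07, adjusted p = 2.64e-14). The 3 compound 16 arrays of KIF20A lay within 0.1 log2 units of each other.

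All 3 enzymes of serine synthesis rose. PSAT1, the transaminase of the second step, had 12.49, 12.43 and 12.41 in compound 16, against 11.12, 11.15 and 11.11 in DMSO, 2.49-fold higher (1.32 ± 0.08). PSPH, the final phosphatase, had 10.58, 10.72 and 10.61 in compound 16 and 10.16, 10.14 and 10.09 in DMSO (0.51 ± 0.06, adjusted p = 6.81e-08). The groups did not overlap for either gene. The rise of PSPH differed between its 3 probe sets, which gave -0.04 to 1.08, and 2 of them passed, whereas each of the 8 probe sets of PSAT1 passed.

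Of 15 enzymes and carriers of folate one-carbon metabolism, 3 rose and 2 fell, and the risers were mitochondrial. MTHFD2, a mitochondrial dehydrogenase of the folate pathway, had 12.46, 12.36 and 12.43 in compound 16 and 11.31, 11.24 and 11.46 in DMSO (1.08 ± 0.06, adjusted p = 1.28e-16). SHMT2, which splits serine into glycine and a one-carbon unit in mitochondria, had 10.62, 10.65 and 10.71 in compound 16 and 9.95, 10.12 and 10.08 in DMSO (0.61 ± 0.07). Both genes were separated between the groups. MTHFD1L, which releases formate from mitochondria, rose by 0.82 ± 0.12. Of 4 cytosolic members none rose: TYMS, which makes thymidylate, fell by 0.20, and SHMT1 and MTHFD1 differed by -0.21 ± 0.07 (adjusted p = 0.0651) and -0.11 ± 0.06 (adjusted p = 0.32). The value of SHMT1 was the smallest of its 5 probe sets, which went down to -0.51, and 3 of them fell. GGH, which trims stored folates, fell by 0.36. None of the 4 genes of the glycine cleavage system passed, with differences of -0.20 to 0.16 and a middle value of 0.03. The middle value of the 15 one-carbon genes was -0.03, and the median of all genes was 0.002. In the 6 arrays alone the 3 rises of the one-carbon list passed and neither of its falls did.

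CBS joins serine to homocysteine on the way to cysteine. It had 10.69, 10.53 and 10.63 in compound 16, against 8.41, 8.67 and 8.55 in DMSO, 4.21-fold higher (2.08 ± 0.08, adjusted p = 1.31e-21). All 6 probe sets of CBS passed, at 1.55 to 2.66. CTH, the enzyme of the next step, moved the other way and fell by 0.50 ± 0.13 (adjusted p = 0.0115). CHAC1, which breaks down glutathione, rose by 1.05 ± 0.16 and GCLM, a subunit of the enzyme that starts its synthesis, by 0.25 ± 0.07. The other 9 of the 13 genes of transsulfuration, the methionine cycle and glutathione did not pass, and in the 6 arrays alone 2 of the 13 passed, both rises.

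The factors of the integrated stress response were higher almost throughout, 9 of 10, with a median difference of 0.85. ATF4 itself, whose control is mostly translational, rose by 0.74 ± 0.05 (adjusted p = 7.29e-14). Of the factors that it induces, NUPR1 was highest in fold: its signals were 10.29, 10.25 and 10.08 in compound 16 and 8.03, 7.92 and 7.77 in DMSO (4.93-fold). DDIT3 (CHOP) had 7.67, 7.59 and 7.37 in compound 16, against 6.87, 6.32 and 5.65 in DMSO (1.26 ± 0.20). Its groups did not overlap, but the DMSO arrays covered more than 1 log2 unit. CEBPG rose by 0.95, JDP2 by 1.00, ATF5 by 0.71, ATF3 by 0.69 and CEBPB by 0.35. Only 1 of 7 probe sets of ATF3 (-0.08 to 0.69) and 1 of 4 of ATF5 (0.25 to 0.71) passed. Of the 10 factors 8 rose with the mean of probe sets, and 7 in the 6 arrays alone. TRIB3, a feedback inhibitor of ATF4, had 11.00, 11.08 and 11.17 in compound 16 and 9.46, 9.38 and 9.47 in DMSO (3.14-fold). PPP1R15A, the inducible subunit of the eIF2 phosphatase, did not pass (0.09 ± 0.14, adjusted p = 0.805). None of the 4 eIF2 kinases passed, with differences from -0.06 for EIF2AK4 (GCN2) to 0.09 for EIF2AK2. RNA levels do not measure kinase activity.

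Of 8 genes that restrain mTORC1, the kinase complex that matches growth to nutrients, 5 rose. EIF4EBP1 (4E-BP1), a repressor of cap-dependent translation, had 12.04, 11.95 and 11.99 in compound 16 and 10.62, 10.64 and 10.67 in DMSO (2.55-fold, adjusted p = 1.38e-19). SESN2, a leucine sensor, had 7.62, 7.82 and 8.07 in compound 16 and 6.72, 6.58 and 6.76 in DMSO (1.15 ± 0.12). The groups were separate for both. DEPTOR rose by 0.69, DDIT4 by 0.62 and TSC1 by 0.29, while SESN1, SESN3 and TSC2 had values of 0.09, -0.16 and 0.06 that did not pass.

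Aminoacyl-tRNA synthetases were listed by compartment, and GARS1 and KARS1, which serve both, were counted as cytosolic. Of 19 cytosolic members 12 rose, with a median of 0.58, and of 16 mitochondrial members none passed, with a median of -0.02 and values from -0.18 for SARS2 to 0.25 for WARS2. MARS1, which charges methionine, had 11.06, 11.17 and 11.02 in compound 16 and 9.80, 9.74 and 9.84 in DMSO (1.29 ± 0.07). SARS1, which charges serine, had 11.37, 11.36 and 11.30 in compound 16 and 10.25, 10.21 and 10.23 in DMSO (1.11 ± 0.07). Neither gene's groups overlapped. The rises of CARS1, YARS1, AARS1 and GARS1 were 1.28, 1.20, 1.09 and 1.04. Smaller rises were those of WARS1 (0.90), IARS1 (0.80), EPRS1 (0.80), TARS1 (0.58), NARS1 (0.55) and LARS1 (0.32). The 7 cytosolic members that did not pass were VARS1, KARS1, FARSA, FARSB, QARS1, HARS1 and RARS1, at -0.11 to 0.31. The compartments were not tested against each other. In initiation of translation, 4 of 19 genes rose, the largest being EIF2S2 at 0.46, and EIF4A2 fell by 0.25; in the 6 arrays alone 1 of these 5 passed. None of 17 ribosomal protein genes passed, at 0.02 to 0.10.

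Amino acid carriers showed 8 rises and 2 falls among 27. SLC1A4, which exchanges serine and alanine, had 8.53, 8.59 and 8.51 in compound 16 and 7.12, 7.24 and 7.29 in DMSO, without overlap (2.51-fold, adjusted p = 5.54e-14). The arginine and lysine carrier SLC7A1 rose by 1.02, the glutamine exchanger SLC1A5 by 0.82 and the glycine carrier SLC6A9 by 0.81. The rise of SLC6A9 was seen with 1 of its 7 probe sets, which ranged from -0.26 to 0.81. That of SLC1A4 was seen with 2 of 6 (0.33 to 1.36) and that of SLC7A1 with 2 of 4 (0.09 to 1.02). The heavy chain SLC3A2, which brings exchangers to the membrane, rose by 0.55, with its light chains SLC7A5 by 0.28 and SLC7A11 by 0.27. SLC38A1 rose by 0.54, and SLC38A2, a sodium-coupled carrier of the same family, differed by 0.05 ± 0.06 (adjusted p = 0.71), although a dimmer one of its 3 probe sets fell by 0.58. SLC6A14 and SLC36A4 fell, by 0.69 and 0.40, the former with 1 of its 3 probe sets (-0.69 to 0.22). The 2 mitochondrial serine carriers of the list had values between -0.07 and 0.02 and did not pass.

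ASNS, which makes asparagine, had 12.63, 12.70 and 12.71 in compound 16, against 10.75, 10.73 and 10.86 in DMSO (3.73-fold, 1.90 ± 0.07). Its adjusted p of 1.12e-22 came with 4 of 4 probe sets passing at 1.90 to 2.08. BCAT1, the cytosolic branched-chain transaminase, had 10.19, 10.18 and 9.79 in compound 16 and 7.89, 7.47 and 7.81 in DMSO (5.03-fold). Of its 5 probe sets, at 0.23 to 2.33, 4 passed. The groups did not overlap for either gene. The 9 other genes of branched-chain breakdown did not pass (-0.08 to 0.13), the mitochondrial BCAT2 among them at 0.02. PYCR1, the last enzyme of mitochondrial proline synthesis, rose by 0.76 and GOT1, the cytosolic aspartate transaminase, by 0.40.

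PKM, the enzyme named in the title of the series, had 9.57, 9.75 and 9.60 in compound 16 and 9.98, 10.05 and 9.94 in DMSO. The groups did not overlap, and its RNA was 1.28-fold lower (-0.35 ± 0.07, adjusted p = 0.000227). The 5 PKM probe sets gave -0.35 to 0.07, and 3 of them fell. Among 20 genes of glycolysis 4 fell and 1 rose, PFKP by 0.22. The brain-type aldolase ALDOC had 5.36, 5.90 and 5.75 in compound 16, against 6.93, 6.95 and 6.71 in DMSO (2.28-fold lower, adjusted p = 5.09e-07), while ENO1 fell by 0.17 and PGK1 by 0.15. The fall of ALDOC was seen with 2 of its 5 probe sets, which ranged from -1.19 to -0.32. The calls of ENO1 and PGK1 were lost under 8 and 7 of 13 alternative settings. In the 6 arrays alone ALDOC was the 1 of the 20 that passed, and the call of PKM was lost. PCK2, which makes phosphoenolpyruvate in mitochondria, had 9.76, 9.84 and 9.73 in compound 16 and 8.15, 8.18 and 8.12 in DMSO (3.09-fold). Of the other genes of pyruvate use, PDK3, PDK4 and MPC2 fell by 0.44, 0.40 and 0.33, and 1 of these 3 falls passed in the 6 arrays alone. None of 14 genes of the citric acid cycle and none of 19 genes of the respiratory chain passed, with medians of 0.01 and 0.02. TXNIP, which rises with glucose-derived metabolites, had 9.51, 9.18 and 9.30 in compound 16 and 8.51, 8.55 and 8.13 in DMSO (0.93 ± 0.23, adjusted p = 0.00661). ARRDC4, a related arrestin, rose by 0.74, and the other 5 genes of glucose sensing did not pass. TXNIP rose with 3 of its 5 probe sets (0.002 to 1.17) and ARRDC4 with 1 of 3 (0.10 to 0.74). The 6 arrays alone left 1 of these 7 genes.

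**Figure D2:**
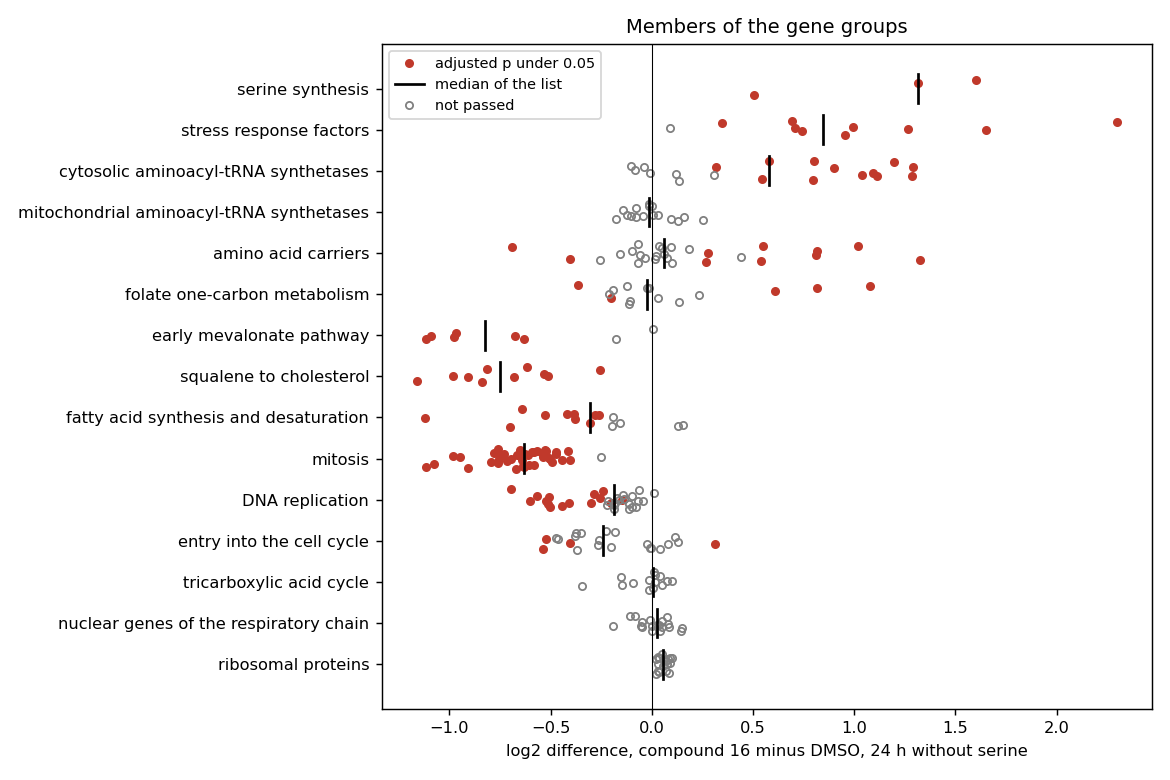
Log2 difference, compound 16 minus DMSO without serine at 24 h, of each measured member of 15 gene groups. Filled dots passed at adjusted p under 0.05, open dots did not, and a black line is the group's median; stress factors and cytosolic synthetases lie above 0, cholesterol and mitosis genes below it, and mitochondrial synthetases, the citric acid cycle and ribosomal proteins around it.

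Enzymes of cholesterol synthesis fell. Of 8 early steps up to farnesyl and geranylgeranyl diphosphate 6 were lower (median -0.82), and of 10 steps from squalene to cholesterol all 10 were (median -0.75). ACAT2, which joins acetyl-CoA units at the start, had 9.96, 9.85 and 9.99 in compound 16 and 11.02, 11.03 and 11.11 in DMSO (2.17-fold lower, adjusted p = 3.51e-17). DHCR7, the last step to cholesterol, had 8.34, 8.54 and 8.18 in compound 16 and 9.49, 9.43 and 9.62 in DMSO (-1.16 ± 0.10). SQLE, which oxidises squalene, had 9.84, 9.78 and 9.82 in compound 16, against 10.81, 10.75 and 10.83 in DMSO (-0.98 ± 0.06). The groups did not overlap for these 3 genes. IDI1 fell by 1.09, MVK by 0.98, HMGCS1 by 0.97, FDPS by 0.68 and MVD by 0.63, and PMVK and GGPS1 differed by -0.18 and 0.01 without passing. EBP, MSMO1, LSS and TM7SF2 fell by 0.91, 0.84, 0.82 and 0.68, and HSD17B7, NSDHL, CYP51A1 and SC5D by 0.62, 0.53, 0.51 and 0.25. The fall of SC5D was seen with 1 of its 4 probe sets (-0.54 to 0.38), and its call was lost under 7 of 13 alternative settings. In the 6 arrays alone 5 of the 8 early and 9 of the 10 later genes passed.

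Of the genes that sense or move sterol, INSIG1, which retains SREBP in the endoplasmic reticulum, fell by 0.81 and SREBF2, which encodes the cholesterol-directed SREBP, by 0.43. ABCG1, a sterol exporter, rose by 0.81 ± 0.19. The rise of the exporter ABCA1 (0.42 ± 0.13, adjusted p = 0.0389) came from 1 of its 3 probe sets, which ranged from -0.32 to 0.42, and the mean of the 3 gave -0.02. Of 15 genes of fatty acid synthesis and desaturation 10 fell, with a median of -0.31. The desaturase FADS2 fell by 1.12, ELOVL6 by 0.70, FADS1 by 0.64, the synthase FASN by 0.53, SCD by 0.42 and ACLY by 0.26. In a fit of the 6 arrays alone 4 of the 15 passed.

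Genes of mitosis fell nearly without exception: 40 of 41 were lower, with a median of -0.63, and KIF20A above was among the deeper falls. In bulk RNA, fewer cells in mitosis and less RNA per such cell cannot be told apart. SGO2, which guards cohesion at centromeres, had 7.57, 7.41 and 7.74 in compound 16, against 8.69, 8.68 and 8.70 in DMSO (-1.12 ± 0.09). ANLN, a scaffold of the cytokinetic ring, had 9.60, 9.67 and 9.89 in compound 16 and 10.84, 10.78 and 10.77 in DMSO (-1.08 ± 0.10). Both genes had DMSO arrays within 0.1 log2 units of each other and no overlap. The 8 motors fell by 0.53 (KIF23) to 0.98 (KIF20A), among them KIF14 by 0.95 and KIF11 by 0.76. The 8 cyclins and kinases fell by 0.40 to 0.73, from PLK1 (adjusted p = 0.0435) to AURKA, with CCNB2 at -0.63, CCNB1 at -0.58 and CDK1 at -0.51. The 5 kinetochore genes ranged from -0.73 for SPC25 to -0.42 for NUF2. The 6 spindle assembly genes ranged from -0.91 for DLGAP5 to -0.54 for PRC1. CDC20, the activator of mitotic exit, fell by 0.76 and UBE2C by 0.44. MAD2L1, of the spindle checkpoint, was the member that did not pass (-0.25 ± 0.10, adjusted p = 0.163). The fit of the 6 arrays alone left 36 of the 41.

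Of 33 genes of DNA replication 15 fell, with a median of -0.19, and 7 of the 33 passed in the fit of the 6 arrays alone. How this list differs from that of mitosis was not tested. The 4 genes that supply deoxynucleotides fell: RRM2 by 0.60, TK1 by 0.52, RRM1 by 0.41 and TYMS by 0.20. POLA2 (0.69), CDC45 (0.57), GINS1 (0.51) and POLE2 (0.51) led the other falls. PCNA, the sliding clamp, fell by 0.15, and MCM2 and MCM4 of the helicase by 0.26 and 0.29. These 3 calls were lost under 9, 7 and 6 of 13 alternative settings. In a fit of all probe sets none of the 2 of PCNA or the 4 of MCM2 passed. Of 22 regulators of entry into the cell cycle 3 fell, E2F7, SKP2 and CCND3, by 0.54, 0.52 and 0.40. Each fall was seen with 1 of 2 probe sets, and the other gave 0.041, 0.005 and -0.013. CDKN1A (p21), an inhibitor of cyclin-dependent kinases, rose by 0.31 ± 0.07. None of the 22 passed limma's test in the 6 arrays alone, where 10 had an unadjusted p under 0.05. Among 14 genes of the DREAM complex and its counterparts, the mitotic activators FOXM1 and MYBL2 fell by 0.66 and 0.53, and the complex's subunit LIN52 rose by 0.35 (adjusted p = 0.0459). The other of its 2 probe sets gave -0.18, and its call was lost under 8 of 13 alternative settings. Of 13 histone and chromatin genes 6 fell, among them LMNB1 by 0.53, H2AX by 0.51 and EZH2 by 0.45, and 3 passed in the 6 arrays alone.

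The deepest fall was that of FGFBP1, a secreted carrier of fibroblast growth factors. It had 5.43, 5.33 and 5.67 in compound 16, against 7.62, 7.50 and 7.66 in DMSO, 4.34-fold lower (-2.12 ± 0.15, adjusted p = 2.96e-13). Its groups lay more than 1 log2 unit apart. The nuclear receptor NR4A1, an immediate early gene, had 7.88, 8.01 and 7.78 in compound 16 and 9.22, 9.06 and 9.33 in DMSO (2.49-fold lower). 6 of its 7 probe sets fell. Its relatives NR4A2 and NR4A3 fell by 0.57 and 0.49, FOS by 0.68 and FOSL2 by 0.44, and JUN rose by 0.51 (adjusted p = 0.0292). FOS fell with 1 of 4 probe sets (-0.68 to -0.06) and FOSL2 with 2 of 5 (-0.44 to 0.17). JUN rose with 1 of 4 (-0.22 to 0.51). The calls of JUN and NR4A3 were each lost under 6 of 13 alternative settings. The other 12 of 18 early genes did not pass, and in the 6 arrays alone 2 of the 18 did. Of other secreted factors, VEGFA rose by 0.93 ± 0.08 and GDF15 by 0.30 ± 0.08, and FGF21 differed by -0.04 ± 0.13. The rise of VEGFA was seen with 4 of its 10 probe sets, which ranged from -0.26 to 1.17.

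Of 16 inflammatory genes 4 fell, all chemokines that attract neutrophils. CXCL3 had 6.43, 6.80 and 6.84 in compound 16 and 7.72, 7.87 and 7.72 in DMSO (-1.08 ± 0.18). CXCL1, CXCL5 and CXCL2 fell by 0.73, 0.72 and 0.62. In the 6 arrays alone 2 of the 4 passed. Of 23 interferon-stimulated genes 3 fell. The RNA sensor OAS1 had 7.55, 7.37 and 7.38 in compound 16, against 8.57, 8.51 and 8.54 in DMSO (2.15-fold lower, adjusted p = 5.93e-13), with 4 of 4 probe sets falling. OAS3 fell by 0.62 and IFIT1 by 0.59. The groups did not overlap for CXCL3 or OAS1.

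Stress lists outside the amino acid response had some members that passed, where 7.06% of all genes and 15.3% of the 4560 brightest did. The shares were 34.8% for endoplasmic reticulum stress, 23.5% for hypoxia, 20% for p53 and 17.4% for NRF2. The NRF2 list was bright, with a mean level of 13.1 in both groups, and its share was close to that of the brightest genes. Whether any of these lists exceeded genes of like signal was not tested. Of 23 genes of the endoplasmic reticulum stress response 6 rose and 2 fell: HERPUD1 rose by 0.75, DNAJB9 by 0.53, ATF6 by 0.45 and HYOU1 by 0.38, and the chaperones CALR and SDF2L1 fell by 0.62 and 0.27. In the 6 arrays alone 3 of the rises and neither fall passed. HSPA5 (BiP), the main chaperone there, differed by 0.23 ± 0.08 (adjusted p = 0.068). Of 20 p53 targets 4 rose, by 0.28 (BBC3 and TNFRSF10B) to 0.41 (ZMAT3, adjusted p = 0.0444), and in the 6 arrays alone 1 did. Of 23 NRF2 targets 4 rose by 0.17 (SRXN1) to 0.34 (HMOX1), and none passed limma's test in the 6 arrays alone, where 4 of the 23 had an unadjusted p under 0.05. Of 17 hypoxia genes VEGFA rose, with 4 of its 10 probe sets, and EGLN1, NDRG1 and P4HA2 fell by 0.38, 0.37 and 0.29. The 6 arrays alone left the rise of VEGFA and none of the 3 falls, with 7 of the 17 genes at an unadjusted p under 0.05. Among 7 ligands of the immune receptor NKG2D, ULBP1 rose by 1.10 ± 0.18 and MICA fell by 0.59 ± 0.10. The rise of ULBP1 was seen with 1 of its 3 probe sets (-0.10 to 1.10), and the fall of MICA with 3 of 3.

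Several of the largest changes lay outside the lists. BEX2, a small adaptor protein, had 9.10, 9.03 and 9.16 in compound 16 and 7.41, 7.34 and 7.31 in DMSO (3.34-fold). The neuropeptide gene SPX was 2.59-fold higher, with 8.10, 8.52 and 8.53 in compound 16 and 6.79, 7.32 and 6.92 in DMSO. CLGN, a testis-type chaperone, was 2.50-fold, TUBE1 (epsilon-tubulin) 2.31-fold and SNTB1 (a syntrophin) 2.13-fold higher. The rise of SNTB1 was seen with 2 of its 5 probe sets, which ranged from -0.37 to 1.15. The actin-binding TMSB15A had 5.29, 6.04 and 6.40 in compound 16 and 6.82, 7.18 and 7.25 in DMSO (-1.18 ± 0.24). Its compound 16 arrays covered more than 1 log2 unit, yet lay below all DMSO arrays. The glucosidase MGAM was 2.26-fold lower, BCL2L15 2.15-fold, the ether lipid oxidase AGMO 2.11-fold and ARHGEF39 2.07-fold. GAS2L3, KIFC1, LGALS2 and TF (transferrin) fell by 0.99, 0.98, 0.94 and 0.93. The falls of TF and AGMO were each seen with 1 probe set, of 4 (-0.93 to 0.16) and of 2 (-1.08 and -0.11).

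The same compound effect was next set against that in medium with serine at 24 h. There 136 genes (0.746%) were higher and 113 (0.62%) lower, 1.37% in all, and 97 of the 136 were also among the 542 higher without serine. Of the 113, 84 were among the 745. The difference between both effects, without minus with serine, passed for 234 genes (1.28%): the effect was more positive without serine for 70 (0.384%) and more negative for 164 (0.899%). With arrays centred on their medians it was more positive for 100 of 203. For PHGDH the effect was 1.60 without and 1.46 with serine, a difference of 0.15 ± 0.11 that did not pass (adjusted p = 0.705). For NIBAN1 it was 3.35 without and 1.73 with serine, and the difference of 1.62 ± 0.23 passed (adjusted p = 2.92e-05). BCAT1, BEX2, CBS, MARS1 and ASNS had differences of 1.01, 1.03, 0.73, 0.62 and 0.55 that passed, and 7 of the 19 cytosolic synthetases did. In STC2 and NUPR1 the differences, 0.83 ± 0.24 and 0.58 ± 0.17, did not pass (adjusted p = 0.0788 and 0.095).

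For mitosis genes the list's median effect was -0.63 without serine and -0.11 with it, and the effect was more negative without serine for 33 of 41 members. KIF20A averaged 9.71 in compound 16 and 9.87 in DMSO with serine, a fall of 0.16 ± 0.07 that did not pass (adjusted p = 0.292), and its difference between media was -0.82 ± 0.09. For 7 of 18 cholesterol genes the difference between media was negative and passed: for DHCR7 it came from -1.16 without and -0.33 with serine, and for ACAT2 from -1.12 and -0.47. ALDOC, LGALS2, CXCL3 and OAS1, at 0.10, 0.10, -0.08 and -0.24 with serine, did not pass there, and each differed between media by -0.87 to -1.29. IFIT1 was lower without serine (-0.59) and higher with it (0.71), a difference of -1.30 ± 0.25 (adjusted p = 0.00211). LIN52, whose probe sets disagree, was read at 0.35 without serine and -0.46 with it.

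**Figure D3:**
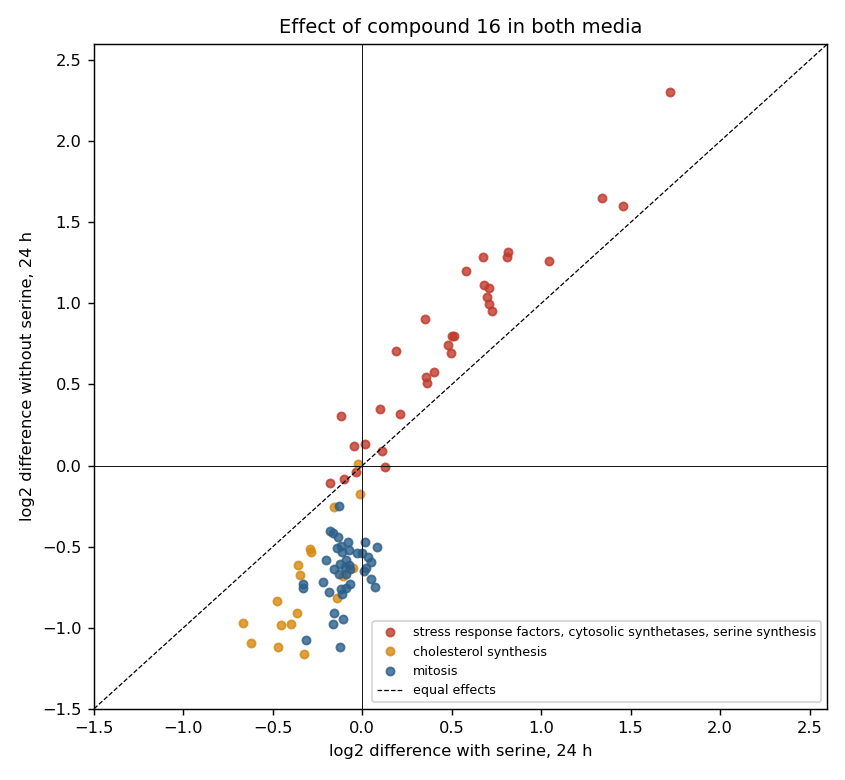
Effect of compound 16 at 24 h with serine (horizontal, log2) against that without serine (vertical, log2) for genes of 3 kinds. Stress factors, synthetases and serine synthesis are red, cholesterol genes orange and mitosis genes blue, and the dashed line marks equal effects; mitosis genes lie below it, with a median of -0.63 without and -0.11 with serine.

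Against 6 h in the same medium, where 271 genes (1.49%) were higher and 225 (1.23%) lower, 2.72% in all, the effect at 24 h differed for 316 genes (1.73%). It was more negative at 24 h for 212 (1.16%) and more positive for the rest (0.57%), and with arrays centred on their medians more positive for 143 of 296. Both the difference between times and that between media use the 6 arrays of the main comparison. NIBAN1 in compound 16 was at 9.46 at 6 h and 9.92 at 24 h, and in DMSO at 7.85 and 6.57. Its larger effect at 24 h (difference 1.75 ± 0.23) thus held a step up of 0.47 in compound 16 and a step down of 1.28 in DMSO. Between 6 h and 24 h ASNS changed by -0.11 in compound 16 and -1.13 in DMSO, CBS by -0.12 and -1.38, and BCAT1 by 0.31 and -1.39. ASNS, CBS and BCAT1 were among the 10 most positive differences between times, so they do not stand for all stress genes. Over the 10 stress response factors the median change was -0.46 in compound 16 and -0.46 in DMSO. STC2 dropped in both arms, by 1.14 in compound 16 and 2.16 in DMSO. For PHGDH the steps were 0.55 in compound 16 and -0.42 in DMSO.

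Some stress genes had their larger value at 6 h. DDIT3 had an effect of 1.91 at 6 h and 1.26 at 24 h, TRIB3 of 1.85 and 1.65, and these differences did not pass (adjusted p = 0.316 and 0.445). CEBPB was less raised at 24 h (0.84 at 6 h, 0.35 at 24 h, difference -0.49), and so was GDF15 (0.88 at 6 h, 0.30 at 24 h, difference -0.59). IGFBP1, an inhibitor of growth factor signalling, was raised by 0.89 at 6 h and differed by -0.27 ± 0.12 at 24 h (adjusted p = 0.192), a difference between times of -1.16 ± 0.17. HSPA1B, a cytosolic heat shock protein, fell by 0.75 at 6 h and rose by 0.31 at 24 h (difference 1.06 ± 0.09, adjusted p = 2.13e-10). In all, 7 of 16 heat shock genes had a more positive effect at 24 h, with DNAJB1 at -0.41 and 0.25, and HSPA8 at -0.37 and 0.05. HSPA1A and HSPA1B are near-identical copies, and their probes may not tell them apart.

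In mitosis genes the arms again parted late. Between 6 h and 24 h the list's median changed by -0.15 in compound 16 and by 0.39 in DMSO, its median effect was -0.13 at 6 h and -0.63 at 24 h, and 29 of 41 members had a more negative effect at 24 h. KIF20A in compound 16 went through 9.42, 9.16, 8.92 and 8.81 at 0, 1.5, 6 and 24 h, and in DMSO through 9.44, 9.19, 9.14 and 9.79. Of cholesterol genes, ACAT2 and DHCR7 were little changed at 6 h (-0.13 and -0.16, neither passed), with differences between times of -0.99 and -1.01. HMGCS1 and SQLE were already lower at 6 h, by 0.69 and 0.49, and INSIG1 fell by 1.13 at 6 h and 0.81 at 24 h. For OAS1 the effect was -0.04 at 6 h and -1.10 at 24 h, and for CXCL3 0.24 and -1.08.

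**Figure D4:**
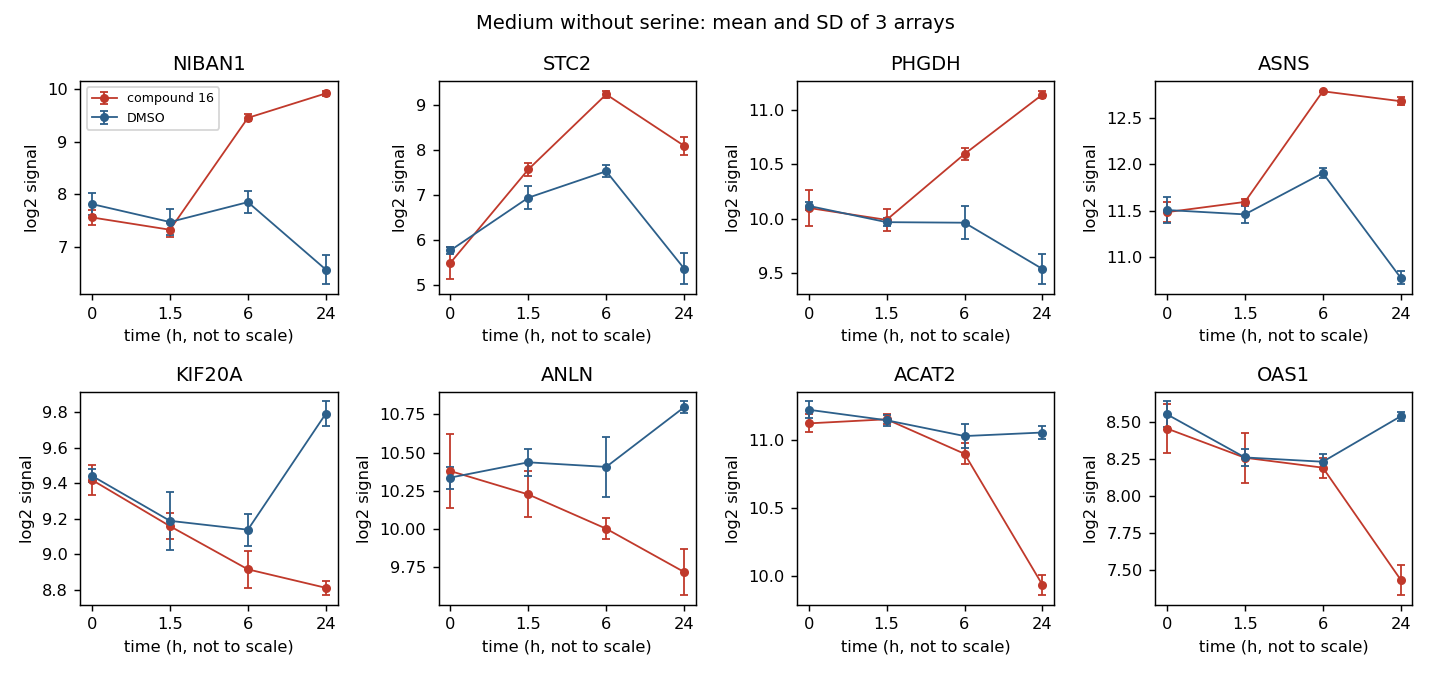
Mean log2 signal without serine at 0, 1.5, 6 and 24 h (spacing not to scale) for 8 genes, compound 16 in red and DMSO in blue, with bars of 1 SD over 3 arrays. NIBAN1 and ASNS stay high in compound 16 and drop in DMSO between 6 h and 24 h. KIF20A declines through the course in compound 16, to 8.81 at 24 h, and in DMSO climbs after 6 h to 9.79.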

How the data were processed

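Total RNA of A549 cells, extracted with Trizol and labelled with biotin, was hybridised to Affymetrix HG-U219 arrays per the labels' protocols. The values are log2 signals of 49386 probe sets, as deposited. Per the submitters' processing notes the authors used RMA, a background correction, between-array normalization and probe summary in 1, and limma, for which no version is stated in the sources used here. RMA shrinks the changes of dim probe sets and takes out any shift common to every gene.

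By GEO's platform annotation 45253 probe sets name 1 gene, 1327 several, 2713 none and 93 are controls; those of 1 gene were used, and 0 symbols needed an update through RefSeq (GRCh38.p14). A gene with several probe sets (11822 of 18239 genes) was read from the brightest one on average. A single model in limma 3.58.1 (R 4.3.3), with a mean for each of the 17 groups, took in the 50 arrays without a filter; eBayes gave 3.7 prior beside 33 residual degrees of freedom, and the script was first tested on simulated data. The 3 comparisons were compound 16 minus DMSO without serine at 24 h, the difference of this effect from that with serine, and its difference from that at 6 h. The median SE was 0.122 for the first and 0.173 for the others, so precision is limited by how many arrays there are. The alternatives were a filter on dim genes, quantile normalization, median centring, fits of the arrays compared alone, array weights, a trended robust prior, the mean of probe sets, and leaving out each array.

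Genes were named by rule: the 4 marker genes and 7 others of serine, asparagine and pyruvate metabolism, the 25 largest rises and 25 largest falls without overlap, the 10 most positive and 10 most negative differences of each other comparison, and members of gene lists by role. Members and lists were chosen with earlier results of these data known. Nothing in the labels says whether the 3 arrays of a group stem from separate cultures, so the p-values reflect array-to-array spread that could be technical. Title numbers run group by group within a time, so a drift in their order cannot be told apart from the compound.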

Additional observations from a re-analysis of the deposited data

Results flagged for a closer look

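The effect of compound 16 at 24 h without serine differed from that with serine, by the interaction term of the limma fit at adjusted p under 0.05, for 234 genes, in the negative direction for 164. The 10 most positive differences, in log2 units, were those of NIBAN1 (1.62), BEX2 (1.03), BCAT1 (1.01), ZNF177 (0.90), ZNF540 (0.87), ZSWIM5 (0.84), TIMP4 (0.83), LIN52 (0.81), DPY19L2 (0.79) and SLC8A1 (0.74). ZNF540 and SLC8A1 did not pass in the compound comparison without serine itself (0.48 ± 0.16 and 0.41 ± 0.14). The 10 most negative were those of IFIT1 (-1.30), ALDOC (-1.29), FGFBP1 (-1.28), TCN1 (-1.20), BCL2L15 (-1.06), LGALS2 (-1.04), CXCL3 (-0.998), SGO2 (-0.99), H3C8 (-0.98) and H2AC20 (-0.98). TCN1, a vitamin B12 carrier, had 6.95, 7.12 and 7.48 in compound 16, against 8.03, 8.10 and 8.20 in DMSO without serine. The histone gene H3C8 rose with serine (0.55 ± 0.15) and differed by -0.43 ± 0.15 without it, which did not pass, and histone genes have near-identical copies that probes may not tell apart.

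The effect without serine also differed between 24 h and 6 h by the same kind of test, for 316 genes, 212 of them more negative at 24 h. The 10 most positive differences were those of NIBAN1 (1.75), BCAT1 (1.69), CBS (1.26), CDK5R1 (1.16), HSPA1B (1.06), ASNS (1.02), STC2 (1.02), PHGDH (0.97), NUPR1 (0.90) and LY96 (0.83). CDK5R1 had 5.78, 5.45 and 6.12 in compound 16 and 4.67, 5.73 and 5.13 in DMSO at 24 h, groups that overlap, and did not pass there (0.61 ± 0.20). The 10 most negative were those of CXCL3 (-1.32), AGMO (-1.25), ALDOC (-1.20), IGFBP1 (-1.16), CXCL2 (-1.10), ARHGEF39 (-1.10), FGFBP1 (-1.08), FADS2 (-1.07), OAS1 (-1.06) and LGALS2 (-1.05). Groups of 3 arrays are too small for a test of single outlying arrays.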

How the results depend on the processing

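Direction and call of 144 of 254 called list and named genes held under each of 13 alternatives to the 50-array fit, and 1 gene reversed, ABCA1, at -0.024 with the mean of its probe sets. Fitting the arrays of a comparison alone, which leaves few degrees of freedom, lowered the counts most. The compound comparison then had 439 calls (165 higher, 274 lower), that between media 67 (13 and 54) and that between times 135 (44 and 91). In that fit 152 of the 254 genes were still called. With a filter on mean signal at its 40th percentile, 481 genes differed between times. Leaving out 1 array at a time gave 976 to 1055 calls in the compound comparison, 158 to 214 differences between media and 230 to 293 between times. The more positive differences between media numbered 42 without array 99, of compound 16 without serine, and 43 without array 98, of DMSO with serine, where 70 stand above. The other total counts stayed within 1.5 times of those in the report.

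Signal limits the calls: 0.68% of the 4560 dimmest genes passed against 15.3% of the brightest. No value for background or detection was used, so dim genes carry no stated floor. At an unadjusted p under 0.05, 3422 genes differed in the compound comparison, 2010 between media and 2110 between times. No paired analysis was possible because the numbers in the titles run through the series and no groups compared share them.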

Other observations

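Other groups of genes moved in few members when compound 16 was set against DMSO without serine at 24 h, where 7.06% of all genes passed. In the fit of the 6 arrays alone no gene of the nucleotide, ribosome biogenesis, death receptor, BCL2, autophagy, MAP kinase feedback or insulin-like growth factor lists passed limma's test, with 3 to 6 of each at an unadjusted p under 0.05. Of 15 genes of nucleotide synthesis 3 rose, CTPS1 by 0.33, GART by 0.22 and ADSL by 0.19, and PRPS2 fell by 0.21. Of 20 genes of ribosome biogenesis RRP12 and PES1 rose, by 0.38 and 0.29. Among 12 death receptors and caspases, the decoy receptor TNFRSF10D rose by 0.56 ± 0.09, CASP4 by 0.40 and TNFRSF10B by 0.28, and CASP9 fell by 0.31. Of 16 listed genes of the BCL2 family BBC3 rose, by 0.28. BCL2L15, a family member left off this list, was among the largest falls given above. Of its 5 probe sets, at -1.11 to -0.37, 2 fell. PPP1R15B, the constitutive subunit of the eIF2 phosphatase, rose by 0.27 ± 0.08.

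Of 21 lysosomal genes the ceramidase ASAH1 rose by 0.54 and LAMP2 by 0.23, and the galactosidase GLA fell by 0.26, and 1 of these 3 passed in the 6 arrays alone. Of 23 autophagy genes MAP1LC3B and SQSTM1 rose, by 0.30 and 0.18. Of 16 mucosal and airway genes the iron-binding LCN2 rose by 0.51 ± 0.07, while BPIFB1 and FOXA1 fell by 0.58 and 0.24. Of 8 genes of the ErbB receptors and ligands EREG rose by 0.38 and EGF fell by 0.45. Of 14 genes of MAP kinase feedback SPRED2 rose by 0.23 and DUSP16 fell by 0.53. IRS2 fell by 0.27 among 11 genes of insulin-like growth factor signalling, and HMMR, already counted with mitosis, among 7 of hyaluronan. None of 7 aryl hydrocarbon receptor targets (-0.12 to 0.13) and none of 24 matrix genes (-0.22 to 0.19) passed in limma's test.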
